A study of Homo sapiens with 6 samples.

Results

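The 9 genes SREBF1, ACLY, ACSS2, ACACA, FASN, ELOVL6, SCD, FADS1 and FADS2 were examined as the fatty acid synthesis and desaturation genes of T47D cells. They were taken by name from a table of 20333 gene intervals. All 9 were present with at least 10 counts in a library, and all 9 passed the filter on low counts that left 19902 genes to test. T47D is an established luminal breast cancer line, positive for the estrogen receptor and negative for HER2. Nascent transcription was measured by PRO-seq, which sequences RNA labelled while engaged polymerases run on in permeabilised cells, so a count reflects polymerase in the gene and not the store of mature mRNA. All cells were grown in medium with complete growth factors and treated for 5 h, in 2 independent experiments, with 1 library per arm in each (6 libraries). The control arm received DMSO. The GDC0068 arm received 500 nM of GDC0068, which inhibits the catalytic activity of AKT. The Degrader arm received 100 nM of INY-05-040, which causes the AKT proteins to be degraded. The doses had been set by the submitters so that signalling below AKT was suppressed to a similar degree. The arms describe 1 cell line at 1 time point.

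Fatty acids are built in the cytosol from acetyl-CoA. ACLY makes acetyl-CoA from citrate and ACSS2 from acetate; ACACA carboxylates it to malonyl-CoA, and FASN joins these units into palmitate. ELOVL6 lengthens the chain, SCD places the double bond of oleate and palmitoleate, and FADS1 and FADS2 desaturate polyunsaturated chains. SREBF1 encodes SREBP-1, the membrane-bound transcription factor that, once cleaved, drives most of these genes. AKT is known to promote SREBP-1 processing, in large part through mTORC1, and breast cancer cells often run this pathway at a high level. The comparisons ask whether transcription of the pathway differs after AKT is inhibited or degraded, and whether it differs between these modes of AKT loss.

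The DNA just upstream of 4 of these genes is shown because SREBF1, ACLY and ACACA were lower under at least 1 drug while SCD separated the drugs. Promoters came from RefSeq (GRCh38.p14), which matched 8 of the 9 genes; no promoter of FASN was used. In the 250 bases upstream of the RefSeq start site, both strands were searched for TCACNCCAC (a sterol regulatory element, the SREBP site), CACGTG (an E-box), CCAAT (the NF-Y site), GGGCGG (a GC box, the SP1 site) and GTAAACA (a FOXO site). Capitals mark the matches; overlapping GC boxes were counted separately, and no match overlapped one of another motif. Each stretch reads 5′ to 3′ on the gene's own strand and ends 1 base before the start site.
SREBF1, chr17:17836987-17837236, minus strand: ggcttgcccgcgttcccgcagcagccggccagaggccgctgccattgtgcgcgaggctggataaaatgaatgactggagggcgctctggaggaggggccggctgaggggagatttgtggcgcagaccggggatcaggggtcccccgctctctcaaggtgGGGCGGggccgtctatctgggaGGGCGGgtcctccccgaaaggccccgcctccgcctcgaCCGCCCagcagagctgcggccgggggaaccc
ACLY, chr17:41918952-41919201, minus strand: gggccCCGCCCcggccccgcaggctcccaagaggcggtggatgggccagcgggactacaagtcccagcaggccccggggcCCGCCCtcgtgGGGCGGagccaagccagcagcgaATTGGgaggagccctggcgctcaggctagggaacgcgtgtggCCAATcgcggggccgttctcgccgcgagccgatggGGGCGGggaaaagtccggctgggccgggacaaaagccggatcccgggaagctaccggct
ACACA, chr17:37359097-37359346, minus strand: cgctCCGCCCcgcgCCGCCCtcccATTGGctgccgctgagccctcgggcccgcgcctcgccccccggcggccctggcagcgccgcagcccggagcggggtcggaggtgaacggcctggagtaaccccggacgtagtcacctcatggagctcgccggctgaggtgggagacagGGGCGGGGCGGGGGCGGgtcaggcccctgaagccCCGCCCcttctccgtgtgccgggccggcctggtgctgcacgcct
SCD, chr10:100346983-100347232, plus strand: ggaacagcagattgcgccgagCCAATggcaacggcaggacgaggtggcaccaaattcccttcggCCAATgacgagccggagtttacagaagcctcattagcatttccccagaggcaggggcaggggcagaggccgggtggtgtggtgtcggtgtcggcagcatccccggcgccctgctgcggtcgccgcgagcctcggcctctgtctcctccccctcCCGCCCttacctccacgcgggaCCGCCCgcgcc

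CCAAT occurred 2 times upstream of SCD and 2 times upstream of ACLY, 1 time upstream of ACACA and not upstream of SREBF1; 32.0% of all 35116 RefSeq promoter windows of this length hold it. GC boxes numbered 6 at ACACA, 4 at ACLY, 3 at SREBF1 and 2 at SCD, and 42.6% of windows hold one. The sterol element in this exact spelling (0.883% of windows) and the E-box (6.34%) were matched in none of the 8 windows, which says only that these letters are not there. The FOXO site (2.98% of windows) was matched at ELOVL6 alone among the 8. The start sites of the deposited intervals of SREBF1, ACLY and ACACA coincide with the RefSeq start used. For ACACA it is 1 of 3 RefSeq starts and for ACLY 1 of 2, and the windows of the other starts were not searched for these genes. SREBF1 had 1 start in the RefSeq set used, so no other start of that gene was searched. The RefSeq start of SCD lies 123 bp downstream of the deposited one. The RefSeq start used for FADS2 lies 729 bp downstream of the deposited one, inside the counted interval. FADS2 and ACSS2 had 2 RefSeq starts each, and only the start nearest to the deposited one was used.

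Total counts per library ran from 25371819 to 32192576. The luminal markers (ESR1, PGR, GATA3, FOXA1, XBP1, SPDEF, KRT8, KRT18, KRT19 and EPCAM) were all transcribed, with a summed level of 5610 to 6030 CPM (counts scaled to a common library total by edgeR) in every library. Of 15 markers of other cell types, 3 were among the 20333 gene intervals, and the others could not be examined. The 3 were ZEB1 (5.23 to 5.99 CPM), PLIN1 (7.06 to 8.41 CPM) and CD68. CD68 stood at 77.2 and 83.6 CPM in DMSO and at 55.1 to 67.6 CPM in the drug libraries, and its part in the results was not tested. Counts are scaled to each library's total, so every change is relative to the bulk of genes. Counts of the 9 genes ran from 635 (FADS1) to 13134 (FASN) per library, which puts counting error alone between 3.97% and 0.873%.

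To compare genes of unequal length, CPM were divided by the length of the interval. The counts are given per interval, so how reads were spread along a gene could not be examined. The order of the genes is an order of counts per length only. In DMSO, FASN had the highest level of the 9, 19.5 ± 1.4 CPM per kb (SD, n = 2, as for all means below). SCD (5.40 ± 0.090), SREBF1 (5.25 ± 0.0044) and ACLY (5.05 ± 0.16) followed, and each gap to the next gene exceeded both SDs. FADS1 stood at 2.17 ± 0.15, ACACA at 1.36 ± 0.047, FADS2 at 1.20 ± 0.12, ACSS2 at 1.09 ± 0.034 and ELOVL6 at 0.378 ± 0.019 CPM per kb. FADS2 and ACSS2 did not differ beyond the spread of FADS2. Under GDC0068 SCD fell behind SREBF1 and ACLY, to 4.03 ± 0.081 CPM per kb against 5.02 ± 0.22 and 4.18 ± 0.023. Under Degrader SCD kept its place at 5.40 ± 0.22, while SREBF1 was at 4.64 ± 0.10 and ACLY at 4.40 ± 0.17 CPM per kb. ACACA, the longest interval at 274.1 kb, was ahead of FADS2 and ACSS2 in DMSO and behind FADS2 under either drug (1.05 ± 0.072 under GDC0068 and 1.08 ± 0.039 under Degrader). ACACA was also behind ACSS2 under Degrader (1.17 ± 0.0089), while under GDC0068 these genes did not differ beyond their spread (ACSS2 at 1.08 ± 0.048).

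**Figure D1:**
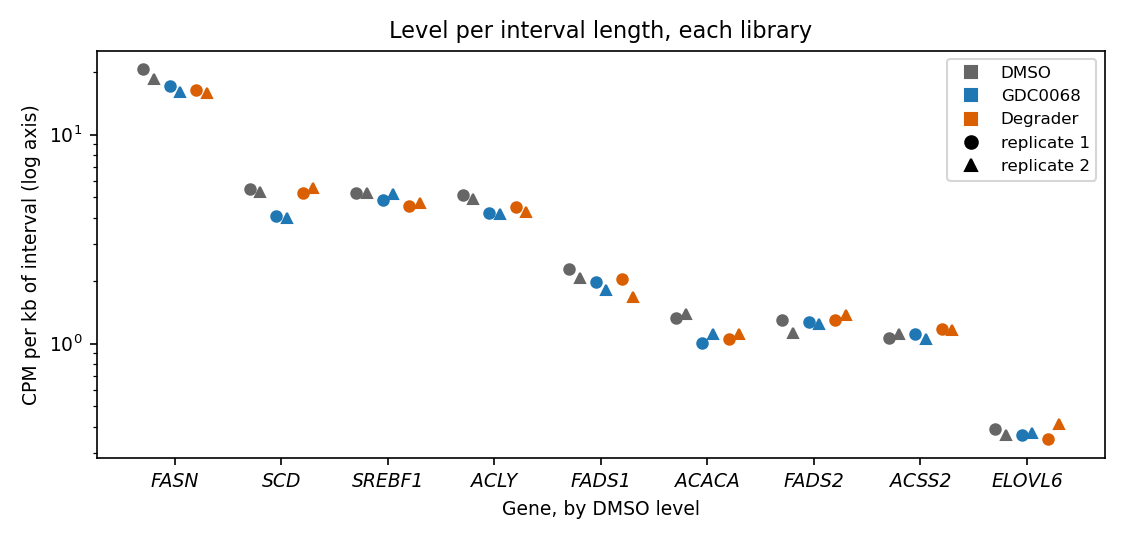
Level of each of the 9 genes in CPM per kb of interval (log axis) in every library, ordered by the DMSO mean; colour gives the arm and shape the replicate. FASN lies above the other 8 genes in all 6 libraries and ELOVL6 below them.

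Against DMSO, 4 of the 9 genes fell under Degrader, by 11.7% (SREBF1), 12.9% (ACLY), 17.5% (FASN) and 20.4% (ACACA). In edgeR 0 of the 9 were called higher, and 0 were higher at an unadjusted p under 0.05. DESeq2 called 0 higher and 3 lower, where it called 2271 of all genes in either direction. Of all genes tested, 7.88% were called lower and 7.39% higher under Degrader (edgeR, adjusted p under 0.05). The median log2 fold change of the 9 was -0.18, against -0.0014 over all genes tested. With the replicate number as a block, 5 of the 9 were lower, FADS1 being added (edgeR adjusted p = 0.0217), and FADS2 was higher (edgeR adjusted p = 0.0420); over all genes this fit called 15.7% lower and 15.1% higher. ACACA was called whichever library was left out. SREBF1 and ACLY lost their calls when any single DMSO or Degrader library was left out. FASN lost its call without DMSO replicate 1 or Degrader replicate 2. Fewer of all genes were called too in each fit without a DMSO or Degrader library, so a lost call is not particular to these genes.

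Against the same DMSO libraries, 3 of the 9 fell under GDC0068, by 17.2% (ACLY), 22.4% (ACACA) and 25.4% (SCD). Of all genes, 1.88% were called lower and 1.70% higher. In edgeR 0 of the 9 were called higher, and 0 were higher at an unadjusted p under 0.05. DESeq2 called 0 higher and 4 lower, where it called 605 of all genes in either direction. The median log2 fold change of the 9 was -0.20, against 0.0099 over all genes. With the block FASN was added, giving 4 of 9 lower and 0 higher, where 8.91% of all genes were lower and 8.87% higher. SCD was called whichever library was left out. ACLY lost its call when any single library of the 4 compared was left out. ACACA lost its call without DMSO replicate 1, DMSO replicate 2 or GDC0068 replicate 1. Fewer of all genes were called too in each fit without a DMSO or GDC0068 library, so a lost call is not particular to these genes. Since both drugs were set against the same controls, their values stand side by side here and are not independent.

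**Figure D2:**
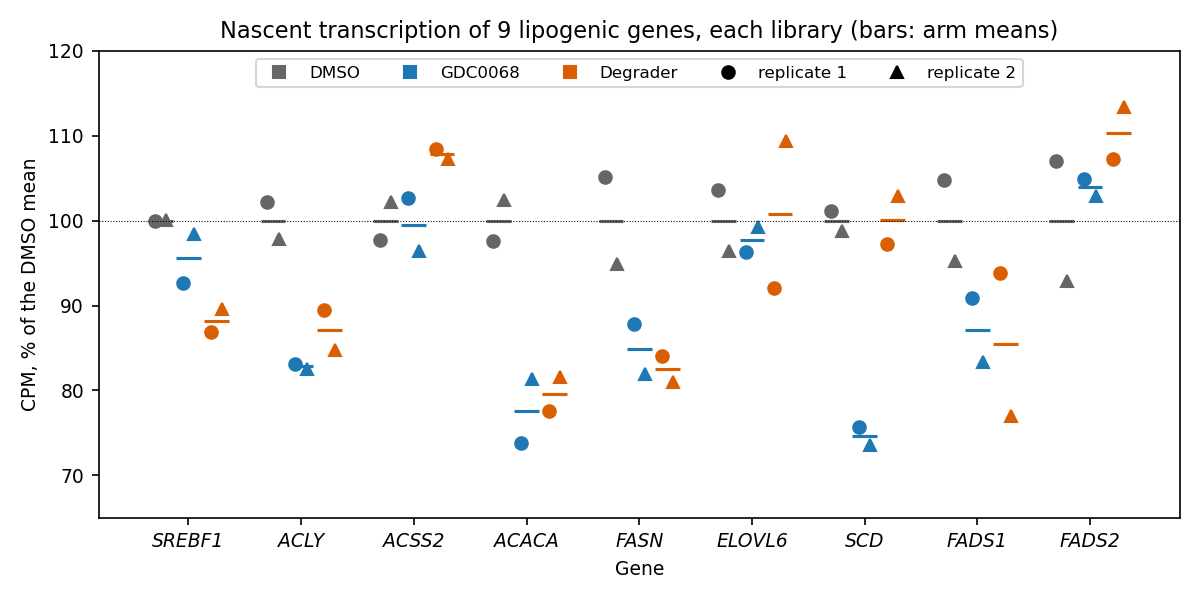
CPM of each gene in each library as a percentage of its DMSO mean (bars are arm means, n = 2). SCD is low in both GDC0068 libraries and level with DMSO in both Degrader libraries, while ACACA, FASN and ACLY are low under both drugs.

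SREBF1 (ENSG00000072310, chromosome 17, 17812073 to 17836986, minus strand), which encodes the transcription factor, had 130.8 and 131.0 CPM in DMSO, 121.3 and 128.9 CPM under GDC0068 and 113.7 and 117.3 CPM under Degrader. Both Degrader libraries lay below all 4 libraries of the other arms, and the DMSO libraries were nearly equal. Under Degrader SREBF1 fell by 0.18 on the log2 scale (SE 0.050, edgeR adjusted p = 0.0324). Under GDC0068 the value was -0.065 (SE 0.050, edgeR adjusted p = 0.511). The Degrader call was lost with the DESeq2 test (DESeq2 adjusted p = 0.0678). The SREBF1 interval holds that of MIR33B (17813836 to 17814115), whose microRNA represses genes of lipid export and oxidation. Its mature strand, shown with the seed (bases 2 to 8) in capitals, is part of the SREBF1 transcript.
hsa-miR-33b-5p: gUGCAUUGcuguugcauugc
The MIR33B interval had 58 to 93 counts per library and a log2 change of -0.40 under Degrader (SE 0.19, edgeR adjusted p = 0.177). Its value under GDC0068 was 0.10 (SE 0.18, edgeR adjusted p = 0.799), and neither was called.

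Of the enzymes that produce acetyl-CoA, ACLY was called under both drugs and ACSS2 under neither; the difference between the genes was not tested. ACLY (ENSG00000131473, chromosome 17, 41866918 to 41918951, minus strand) had 268 and 257 CPM in DMSO, 218 and 217 CPM under GDC0068 and 235 and 222 CPM under Degrader. All 4 drug libraries lay below both DMSO libraries, and the GDC0068 libraries were the lowest. ACLY fell by 0.27 under GDC0068 (SE 0.052, edgeR adjusted p = 0.0207), on the log2 scale, and by 0.20 under Degrader (SE 0.052, edgeR adjusted p = 0.0259). Without 1 library its adjusted p reached 0.160 under GDC0068 (without DMSO replicate 1) and 0.207 under Degrader (without Degrader replicate 2) in edgeR. ACSS2 (ENSG00000131069, chromosome 20, 34876593 to 34927959, plus strand), which uses acetate in place of citrate, had 54.6 and 57.1 CPM in DMSO, 57.3 and 53.8 CPM under GDC0068 and 60.6 and 59.9 CPM under Degrader. The Degrader libraries were the highest, but its change was not called under Degrader (0.11, SE 0.057, edgeR adjusted p = 0.222) or under GDC0068 (-0.0072, SE 0.057, edgeR adjusted p = 0.963).

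ACACA (ENSG00000278540, chromosome 17, 37084994 to 37359096, minus strand), whose product makes malonyl-CoA at the committed step, had 363 and 381 CPM in DMSO, 275 and 303 CPM under GDC0068 and 289 and 304 CPM under Degrader. The drug libraries were all lower than both DMSO libraries and overlapped each other. The log2 fold change was -0.37 under GDC0068 (SE 0.061, edgeR adjusted p = 0.0116) and -0.33 under Degrader (SE 0.061, edgeR adjusted p = 0.00484), which was the largest decrease of the 9 genes under Degrader. The ratios within the replicates were -0.40 and -0.33 under GDC0068 and -0.33 and -0.33 under Degrader. With single libraries left out the GDC0068 value ran from -0.44 to -0.30; edgeR adjusted p was 0.0688 without DMSO replicate 1, 0.0845 without DMSO replicate 2 and 0.0552 without GDC0068 replicate 1. The interval also covers AC244093.1 (71 to 134 counts) and HMGB1P24 (9 to 27 counts) on the same strand, few beside the 6992 to 11669 counts of ACACA.

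FASN (ENSG00000169710, chromosome 17, 82078338 to 82098236, minus strand), the multifunctional synthase, had 409 and 369 CPM in DMSO, 341 and 319 CPM under GDC0068 and 327 and 315 CPM under Degrader. Every drug library was below both DMSO libraries and the DMSO libraries themselves were well apart. Under Degrader the log2 fold change was -0.28 (SE 0.063, edgeR adjusted p = 0.0133); it was -0.20 without DMSO replicate 1 (edgeR adjusted p = 0.145) and -0.26 without Degrader replicate 2 (edgeR adjusted p = 0.117). Under GDC0068 it was -0.24 (SE 0.063), just short of the threshold (edgeR adjusted p = 0.0630). This GDC0068 change was called in 3 of the other fits: the replicate block gave an edgeR adjusted p of 3.02e-05, robust estimation gave 0.0373 (edgeR) and the DESeq2 test gave 0.0237. It was not called in edgeR with DESeq2 size factors (adjusted p = 0.0591), with no filter (0.0603), in the fit to the 4 libraries compared (0.0923) or without any single library, where the adjusted p ran from 0.0851 to 0.368 and the value from -0.31 to -0.16.

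SCD (ENSG00000099194, chromosome 10, 100347110 to 100364826, plus strand), the stearoyl-CoA desaturase, had 96.8 and 94.5 CPM in DMSO, 72.4 and 70.3 CPM under GDC0068 and 93.0 and 98.4 CPM under Degrader. Both GDC0068 libraries lay far below the other 4, and the Degrader and DMSO libraries overlapped. The log2 fold change under GDC0068 was -0.42 (SE 0.052, edgeR adjusted p = 0.00329), with -0.42 and -0.43 in the replicates. By p it ranked 23 of the 19902 genes in that contrast, and 0.518% of the 13897 genes with at least 10 CPM had a lower log2 fold change. Under Degrader it was 0.00032 (SE 0.051, 95% interval -0.11 to 0.11, edgeR adjusted p = 0.998). ELOVL6 (ENSG00000170522, chromosome 4, 110049387 to 110198599, minus strand), which makes the stearate that SCD uses, had 58.5 and 54.4 CPM in DMSO, 54.4 and 56.0 CPM under GDC0068 and 52.0 and 61.8 CPM under Degrader. Its arms overlapped in every comparison, with log2 fold changes of 0.0098 under Degrader (95% interval -0.16 to 0.18) and -0.033 under GDC0068 (95% interval -0.20 to 0.14).

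The desaturases of polyunsaturated chains lie side by side on chromosome 11. FADS1 (ENSG00000149485, 61802313 to 61815351, minus strand) had 29.7 and 26.9 CPM in DMSO, 25.7 and 23.6 CPM under GDC0068 and 26.6 and 21.8 CPM under Degrader. All drug libraries were lower than the DMSO libraries, with a wide gap between the Degrader libraries. Without the block neither change was called: -0.23 under Degrader (SE 0.10, edgeR adjusted p = 0.163), and -0.20 with GDC0068 (SE 0.10, edgeR adjusted p = 0.309). With the block the Degrader change of FADS1 was called (edgeR adjusted p = 0.0217) and its GDC0068 change was not (edgeR adjusted p = 0.0737). FADS2 (ENSG00000134824, 61815474 to 61867354, plus strand) had 66.9 and 58.1 CPM in DMSO, 65.6 and 64.3 CPM under GDC0068 and 67.0 and 70.9 CPM under Degrader. Both Degrader libraries lay above both DMSO libraries, by a margin far smaller than the gap between the DMSO libraries. With the block FADS2 rose under Degrader (edgeR adjusted p = 0.0420). Without the block its change was not called: 0.14 under Degrader (SE 0.068, edgeR adjusted p = 0.195), and 0.053 with GDC0068 (SE 0.068, edgeR adjusted p = 0.718). The Degrader value of FADS2 was 0.00 within replicate 1 and 0.29 within replicate 2. The deposited start sites of the pair are 123 bp apart on opposite strands. The RefSeq start of FADS1 lies 1652 bp upstream of the deposited one, so that 1530 bp of RefSeq FADS1 fall within the FADS2 interval on the other strand; whether reads were counted by strand is not given in the sources used here.

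**Figure D3:**
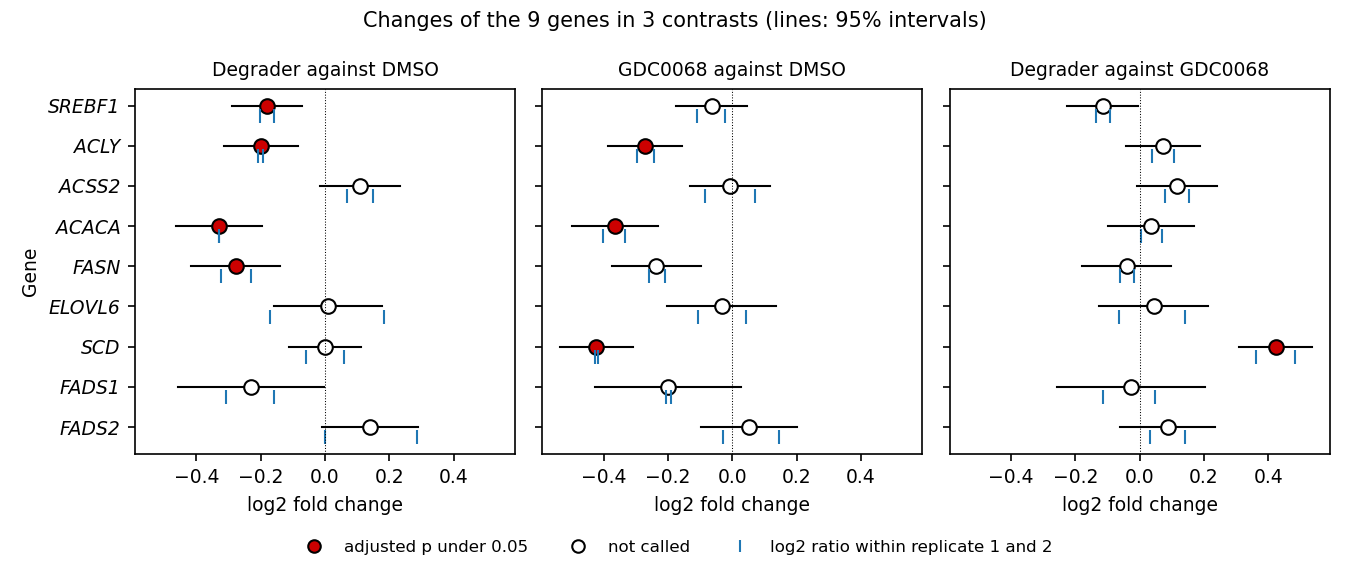
Log2 fold change of each gene in the 3 contrasts, with its 95% interval (lines), calls at an edgeR adjusted p under 0.05 (filled) and the log2 ratio within each replicate (ticks). SCD is the gene called between the drugs, at 0.42, and its interval under Degrader against DMSO spans 0.

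Set directly against each other, Degrader and GDC0068 differed in 1 of the 9 genes, SCD, which was higher under Degrader by 34.1%. Over all genes tested, 0.116% were called higher and 0.151% lower under Degrader than under GDC0068. The log2 fold change of SCD was 0.42 (SE 0.052, 95% interval 0.31 to 0.54, edgeR adjusted p = 0.00827), with 0.36 and 0.48 in the replicates, and it ranked 9 of 19902 genes by p. It was not called without GDC0068 replicate 1 (0.45, edgeR adjusted p = 0.0686) or without Degrader replicate 2 (0.38, edgeR adjusted p = 0.103). With the replicate block SREBF1 was also called, lower under Degrader by 0.12 on the log2 scale (edgeR adjusted p = 0.0424, against 0.331 without the block), giving 1 higher and 1 lower where 5.03% of genes were higher and 5.35% lower. For the enzymes of chain building and citrate cleavage the intervals of the difference spanned 0: -0.10 to 0.17 for ACACA, -0.18 to 0.10 for FASN and -0.04 to 0.19 for ACLY. These bound the difference and do not show that the drugs act alike.

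Summed over the 9 genes, the level was 1477 and 1429 CPM in DMSO, 1231 and 1235 CPM under GDC0068 and 1263 and 1271 CPM under Degrader. The drug arms thus stood at 84.9% and 87.2% of the DMSO mean. FASN and ACACA carry about as much of this sum as the other 7 genes, whose total was 679 to 706 CPM in DMSO, 614 to 615 CPM under GDC0068 and 648 to 652 CPM under Degrader.

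Counts in the related lists that follow stand beside these shares of all genes: under Degrader 7.39% higher and 7.88% lower (15.1% and 15.7% with the block), under GDC0068 1.70% and 1.88% (8.87% and 8.91%), and between the drugs 0.116% and 0.151% (5.03% and 5.35%). A count near its share says nothing about the list. The share of all genes with an unadjusted p under 0.05 was not computed. Counts at that threshold, for the members or the lists, therefore have no share to be read against.

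Of 9 genes of SREBP processing and its partners, 3 rose under Degrader and 0 fell, or 4 and 0 with the block. The median log2 fold change was 0.16, with 0.26 in replicate 1 and 0.052 in replicate 2, while under GDC0068 edgeR called 0 either way (median 0.0053; 1 higher and 0 lower at an unadjusted p under 0.05, 0 with DESeq2, and 1 higher with the block). INSIG1, which holds the SREBP escort SCAP in the endoplasmic reticulum and is itself an SREBP target, went from 21.0 and 21.5 CPM in DMSO to 30.2 and 32.8 CPM under Degrader (log2 fold change 0.57, SE 0.082, edgeR adjusted p = 0.00130) and had 19.9 and 19.8 CPM under GDC0068. MBTPS1, the protease that makes the initial cut in SREBP, rose by 0.32 (SE 0.065, edgeR adjusted p = 0.00760). SREBF2, the paralog that drives sterol genes, rose by 0.26 (SE 0.054, edgeR adjusted p = 0.00810). Between the drugs 1 of the 9 was called, INSIG1, higher under Degrader by 0.66 (SE 0.083, edgeR adjusted p = 0.00827); 3 were called higher with the block. SREBF2 differed by 0.18 between the drugs, which was not called (edgeR adjusted p = 0.175). SREBF1 and SREBF2 thus had changes of opposite sign under Degrader, -0.18 and 0.26, both called in the main edgeR fit. The SREBF1 call was lost with the DESeq2 test (DESeq2 adjusted p = 0.0678). It was also lost when any single DMSO or Degrader library was left out.

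Of 21 tested genes of sterol synthesis and uptake, the nearest group to the 9, 2 rose and 0 fell under Degrader (median 0.061; 5 higher with the block, 0 with DESeq2), near the 7.39% of all genes called higher. Under GDC0068 edgeR called 0 either way (median -0.049; 0 higher and 5 lower at an unadjusted p under 0.05, 0 with DESeq2, and 5 lower with the block). Between the drugs 20 of 21 had a log2 fold change above 0 (median 0.16, against -0.0038 over all genes tested). Of these genes 1 was called higher and 0 lower, or 7 higher with the block. By replicate, 14 of 21 were above 0 in replicate 1 (median 0.078) and 20 of 21 in replicate 2 (median 0.22). HSD17B7, a reductase gene of cholesterol synthesis, was among the genes that rose against DMSO under Degrader (log2 fold change 0.39, edgeR adjusted p = 0.0464). Among the 9 fatty acid genes 6 had a value above 0 between the drugs, with a median of 0.043. No test of the difference between these lists was made.

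The other regulators of lipogenic transcription split under Degrader. Of 13 tested, 3 rose and 2 fell, with a median of 0.053 (1 higher and 2 lower with DESeq2, and 4 higher and 2 lower with the block). Under GDC0068 edgeR called 0 (0 higher and 2 lower at an unadjusted p under 0.05, 0 with DESeq2, and 2 lower with the block). Between the drugs edgeR called 0 (3 higher and 1 lower at an unadjusted p under 0.05, 0 with DESeq2, and 3 higher and 1 lower with the block). NR1H2, which encodes the oxysterol receptor LXR-beta, rose by 0.39 (SE 0.080, edgeR adjusted p = 0.00808). The genes of the carbohydrate-sensing pair fell under Degrader: MLXIPL, which encodes ChREBP, by 0.26 (SE 0.046, edgeR adjusted p = 0.00426) and its partner MLX by 0.22 (SE 0.054, edgeR adjusted p = 0.0172). These were also the 2 genes lower with the block under GDC0068. There MLXIPL was at -0.13 (edgeR adjusted p = 0.141 without the block) and MLX at -0.20 (edgeR adjusted p = 0.0658 without the block). Between the drugs the values were -0.12 for MLXIPL and -0.025 for MLX, neither called without the block.

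Enzymes that supply citrate, acetyl-CoA and NADPH were lower where they were called without the block. Of 12 tested, 4 fell and 0 rose under Degrader (median -0.12; 6 fell and 1 rose with the block), and 2 fell and 0 rose under GDC0068 (median -0.085; 3 fell with the block). The shares of all genes called lower were 7.88% and 1.88%, or 15.7% and 8.91% with the block. TKT, a transketolase of the pentose phosphate pathway, had 105 and 102 CPM in DMSO, 83.5 and 82.2 CPM under GDC0068 and 88.3 and 78.3 CPM under Degrader. It fell by 0.31 under Degrader (SE 0.060, edgeR adjusted p = 0.00555) and by 0.32 under GDC0068 (SE 0.060, edgeR adjusted p = 0.0177). PGD, which yields NADPH, fell by 0.27 under GDC0068 (SE 0.062, edgeR adjusted p = 0.0361) and by 0.24 under Degrader (SE 0.061, edgeR adjusted p = 0.0243). ACSS1, the mitochondrial acetyl-CoA synthetase, fell by 0.27 (edgeR adjusted p = 0.0109) and CS, citrate synthase, by 0.22 (edgeR adjusted p = 0.0133) under Degrader. Between the drugs edgeR called 0 of 12 (0 higher and 3 lower at an unadjusted p under 0.05, 0 with DESeq2, and 2 lower with the block).

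Of 17 further enzymes of fatty acid synthesis, elongation and desaturation, 5 fell and 0 rose under Degrader (median -0.16), where 7.88% of all genes fell. ACACB, the carboxylase gene of this list, was not among the genes tested, so none of the 17 is a carboxylase. With the block 6 fell and 1 rose, ELOVL7, an elongase gene (edgeR adjusted p = 0.00731), which was named after its values were seen. Under GDC0068 1 fell and 0 rose (median -0.16; 6 lower with the block, 0 with DESeq2). Between the drugs edgeR called 0 (2 higher and 3 lower at an unadjusted p under 0.05, 0 with DESeq2, and 2 lower with the block). HACD3, a dehydratase of the elongation cycle, had 61.2 and 61.4 CPM in DMSO, 51.9 and 51.4 CPM under GDC0068 and 51.4 and 51.1 CPM under Degrader, and fell under both drugs (-0.25, edgeR adjusted p = 0.0310 under GDC0068; -0.26, edgeR adjusted p = 0.00783 under Degrader). HACD1, of the same step, fell by 0.38 under Degrader (SE 0.061, edgeR adjusted p = 0.00225) and ELOVL5, an elongase of polyunsaturated chains, by 0.21 (SE 0.050, edgeR adjusted p = 0.0167). SCD5, the second stearoyl-CoA desaturase gene, had log2 fold changes of -0.063 with Degrader and 0.069 with GDC0068, neither called (edgeR adjusted p of 0.773 and 0.799). SCD5 was picked out for its kinship to SCD after its values were seen.

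**Figure D4:**
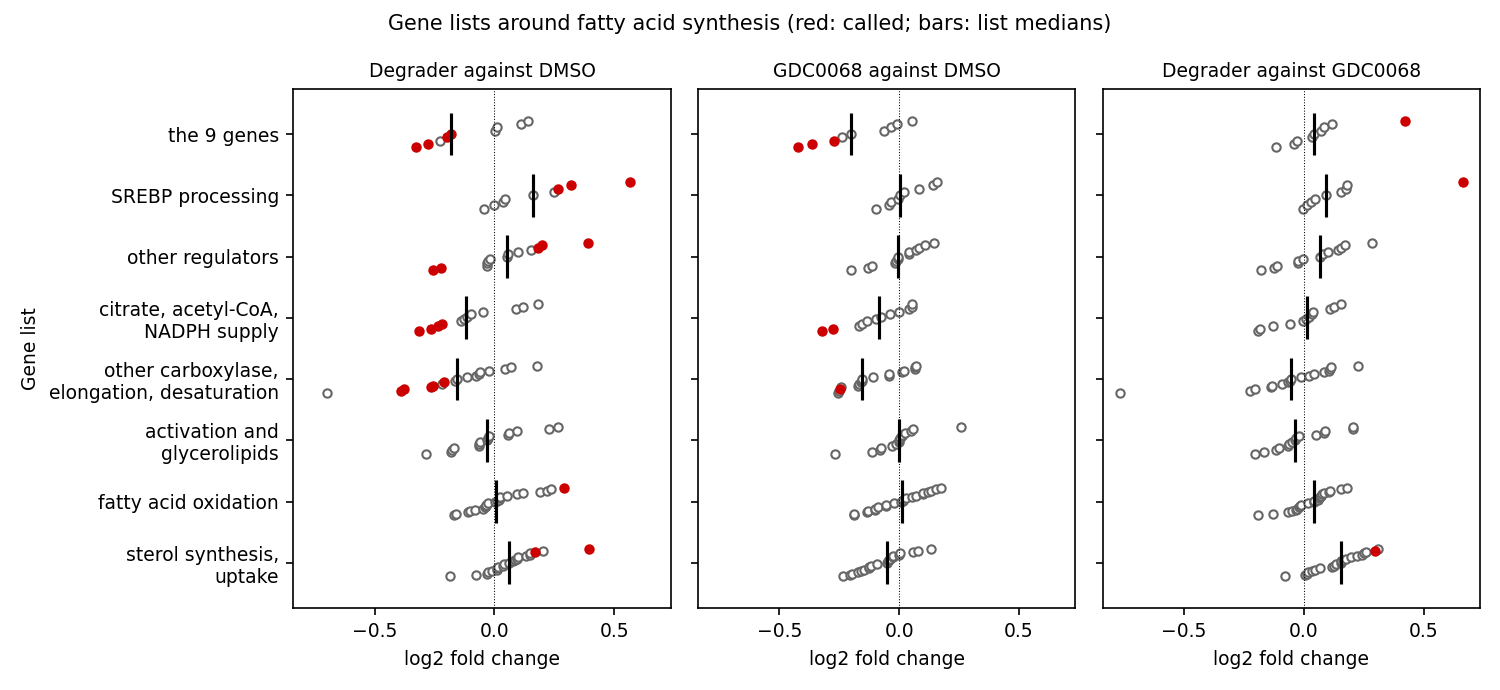
Log2 fold changes of the 9 genes and of 7 related lists in the 3 contrasts; each point is a gene, red where edgeR called it, and the bar is the list's median. The 9 genes, the supply enzymes and the other elongation enzymes have medians below 0 against DMSO under both drugs. Between the drugs 20 of the 21 sterol genes lie above 0 (14 within replicate 1 and 20 within replicate 2).

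SCD had the smallest adjusted p of the 9 genes in any contrast, and the genes with the most similar profile were sought over the 6 libraries. Likeness was the root mean square difference between log2 CPM values centred on each gene's mean, over 13896 other genes with at least 10 CPM. The nearest were AC024560.4 (0.063), CDK2 (0.067), a cell cycle kinase, and TEDC2 (0.070), a centriole protein gene. They were picked for this likeness in the same libraries, so their values are a description with no test. Under GDC0068 their log2 fold changes were -0.38, -0.39 and -0.34, under Degrader 0.11, -0.076 and -0.0017, and between the drugs 0.49, 0.31 and 0.34.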

How the data were processed

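The values are raw counts per gene interval, 1 column per library, deposited by the authors as 1 table; that they are counts follows from the whole numbers and unequal totals. Per the submitters' processing notes, the tools were cutadapt 1.14, Bowtie 1.2.2, SAMtools 1.3.1, HISAT2 2.2.1 and limma, and the builds hg38, GRCh38 and dm3, a fly build, with no role stated. The counting tool, the use of strand, the handling of duplicates and any spike-in scaling are not given in the sources used here. Unstranded counting would add antisense reads to a gene, kept duplicates would make counting error look too small, and scaling to the library total removes a change common to all genes.

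Starts were read as counting from 0 and are printed counting from 1. Counts were analysed with edgeR 4.0.16 in R 4.3.3: filterByExpr (minimum count 10, minimum total 15), TMM scaling, and 1 quasi-likelihood fit (glmQLFit, glmQLFTest) of all 6 libraries with a term per arm and 3 residual degrees of freedom. The threshold for a call was 0.05 on p-values adjusted by Benjamini and Hochberg's method across all 19902 genes. Intervals of 95% use the SE (log2 fold change over the root of F) and 11.7 degrees of freedom. With 2 libraries per arm no permutation test can pass 0.05, so p-values rest on the spread shared across genes. The fitting script was tested on simulated data.

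The labels number the replicates, and the series text speaks of 2 separate experiments. Same-numbered libraries deviated together from their arm means (correlations of 0.238 to 0.279 over genes for the 3 pairs of arms), so a fit with the replicate number as a block is given beside the calls it changes among the members and beside the list counts it changes. Replicates differed by more than sampling noise (chi-square per degree of freedom 5.03 to 6.98).

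The members and gene lists were chosen with earlier results of these data known, so no list is independent evidence. Named genes were the 9 members, up to 3 called genes with the smallest adjusted p per list and contrast, the markers, genes overlapping a member, and the 3 genes most like the member with the smallest adjusted p. For the lists, the block and DESeq2 were run as alternatives. Values of 1 gene that the naming rule selects are not reported here. Alternatives for the members were DESeq2 1.42.0 (its test, and its size factors), no filter, the block, the 4 libraries compared, robust estimation and leaving out each library.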

Additional observations from a re-analysis of the deposited data

How the results depend on the processing

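DESeq2 size factors, the DESeq2 test, no filter, robust estimation and the fit to the 4 libraries compared each left 3 or 4 of the 9 genes called under Degrader, 3 or 4 under GDC0068 and 1 between the drugs. With the replicate block the counts were 6, 4 and 2. Leaving out 1 library gave 1 to 4 under Degrader, 1 to 3 under GDC0068 and 0 to 1 between the drugs; such fits rest on fewer libraries and assume that a lone library varies like the others. Over the same fits the median log2 fold change of the 9 ran from -0.18 to -0.13 under Degrader, from -0.27 to -0.13 under GDC0068 and from 0.036 to 0.077 between the drugs. The sign of a value changed for genes that were not called. Under Degrader SCD became -0.00067 with DESeq2 size factors, -0.00065 with DESeq2 and -6.1e-05 with the replicate block. With 1 library left out, SCD ran from -0.049 to 0.040 and ELOVL6 from -0.13 to 0.13 under Degrader; under GDC0068 ELOVL6 ran from -0.083 to 0.017, FADS2 from -0.044 to 0.16 and ACSS2 from -0.053 to 0.031; between the drugs FASN ran from -0.082 to 0.012, ACACA from -0.030 to 0.12, ELOVL6 from -0.090 to 0.17 and FADS1 from -0.17 to 0.11. SCD under GDC0068 ran from -0.44 to -0.41 and was called in every fit. Depth limits FADS1 most, whose counting error reaches 3.97% in a library.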

Other observations

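Of 15 tested genes of fatty acid activation and glycerolipid synthesis, edgeR called 0 in each of the 3 contrasts, with a median of -0.032 under Degrader, of 0.0013 under GDC0068 and of -0.037 between them; DESeq2 also called 0. At an unadjusted p under 0.05, 2 were higher and 2 lower under Degrader, 0 higher and 1 lower under GDC0068, and 2 higher and 0 lower between the drugs. With the replicate block, 2 rose and 2 fell under Degrader, 0 rose and 2 fell under GDC0068, and 1 was higher between the drugs. Of all genes, that fit called 10.4% in either direction between the drugs, 17.8% under GDC0068 and 30.7% under Degrader.

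Of 22 tested genes of fatty acid oxidation, 1 rose under Degrader and 0 fell, and edgeR and DESeq2 called 0 under GDC0068 or between the drugs (unadjusted p under 0.05 in 3 lower under GDC0068, and in 1 higher and 2 lower between the drugs; with the block, 3 rose and 3 fell under Degrader, 2 fell under GDC0068 and 0 were called between the drugs). The gene that rose was ACADM, the medium-chain acyl-CoA dehydrogenase, with 26.6 and 27.4 CPM in DMSO, 29.8 and 29.5 CPM under GDC0068 and 33.4 and 32.7 CPM under Degrader (log2 fold change 0.29 under Degrader, SE 0.071, edgeR adjusted p = 0.0182). The medians of the oxidation list were 0.013 under GDC0068, 0.0061 under Degrader and 0.044 for Degrader against GDC0068.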
